A study of Mus musculus with 32 samples.

Results

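The genes described here copy DNA in S phase or admit a cell to it. They were chosen by symbol and by their known roles, by a rule that used no measured value, with earlier results of these data known. Of them 10 license replication origins, 7 fire origins and build the helicase, and 8 are polymerase or primase subunits. Another 6 form the sliding clamp and its loader, 4 bind single strands or join Okazaki fragments, and 4 supply nucleotides. The rest are 3 that assemble chromatin or handle histone mRNA and 4 that govern entry into S phase. All 46 symbols were found among the 45706 genes of the table, and all 46 are protein-coding. RNA sequencing followed them in 32 libraries of the mouse line BV-2, which was made by immortalising microglia, the macrophages that reside in the brain.

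The cells, given as wild type in the sample labels, belonged to 8 groups of 4 libraries. Each group received 1 of 4 mimics, short double-stranded RNAs: a scramble mimic with no intended target, or a mimic of miR-7a, miR-29a or miR-146a. Each mimic was combined with vehicle (VEH) or with lipopolysaccharide (LPS, from the outer membrane of bacteria, which macrophages sense through TLR4) given for 24 h at 10 ng/ml, which gave the groups VEH_scramble, VEH_miR-7a, VEH_miR-29a, VEH_miR-146a, LPS_scramble, LPS_miR-7a, LPS_miR-29a and LPS_miR-146a. Every control also carried a mimic, so the effect of transfection itself was not measured here. The labels and the study's methods differ on whether LPS came before or after transfection. All groups are 1 transformed cell line, which proliferates in culture, and the 3 mimics of a condition were set against the same 4 scramble libraries.

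Replication is prepared when the origin recognition complex (ORC), CDC6 and CDT1 load the MCM2-7 helicase onto origins. In S phase the kinase CDC7, with CDC45, the GINS complex and MCM10, turns the loaded helicase into an active one, and polymerase alpha with primase lays down the primers that polymerases epsilon and delta extend. Many of these genes are transcribed in late G1 and S phase under E2F transcription factors. Those factors are released when cyclins, cyclin E among them, and their kinases inactivate the retinoblastoma protein. The RNA of a bulk library pools cells in all phases, so a smaller share of cells in S phase and less RNA of these genes per cell cannot be told apart in any result that follows.

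The sequences of the 3 mature microRNAs are given because the base pairing of their seeds, bases 2 to 8 in capitals, is what the mimics act through. They are RefSeq entries on GRCm38.p6, from Mir7-2 (chr7:78888295-78888317, plus strand) and Mir7-1 (chr13:58392841-58392863, minus strand), Mir29a (chr6:31062673-31062694, minus strand) and Mir146 (chr11:43374435-43374456, minus strand).
miR-7a-5p: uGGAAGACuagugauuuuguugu
miR-29a-3p: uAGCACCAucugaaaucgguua
miR-146a-5p: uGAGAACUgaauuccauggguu

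Few of the replication genes hold a match to these seeds. In the longest annotated 3′ UTR of each gene, the letters AGTTCTC (pairing with bases 2 to 8 of miR-146a) or GTTCTCA (bases 2 to 7 followed by A) were found in 4 of 46 members, 8.70%, against 20.2% of the 11212 tested genes with a 3′ UTR. For miR-7a the letters GTCTTCC or TCTTCCA were found in 9 members, 19.6%, against 25.6%, and for miR-29a TGGTGCT or GGTGCTA in 5 members, 10.9%, against 18.99%. The 3′ UTRs of the members were shorter, with a median of 662.5 bases against 1145 bases over these genes, and a match is a description of letters, not a measured site. The 4 members with miR-146a letters are shown with 10 bases on each side, the matching letters in capitals, because they can be set beside the members that fell with that mimic. Mcm10 lies at chr2:4990067-4990073, minus strand, Gins2 at chr8:120578707-120578713, minus strand, Rfc1 at chr5:65261975-65261982, minus strand and Rpa1 at chr11:75301103-75301110, minus strand (GRCm38, capitals only).
Mcm10: tgggagatgtGTTCTCAtctgctcagg
Gins2: tgcatggcacGTTCTCAatttgtaagc
Rfc1: tgtctttttgAGTTCTCAtggccttgtt
Rpa1: cttccgctccAGTTCTCAgccaccggta

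The letters of the promoters were not used in the choice by role. RefSeq windows from 250 bases before to 50 bases after a transcription start were on hand for 38 of the 46 members. The E2F letters TTTCGCGC, TTTGGCGC, TTTCCCGC or TTTGCCGC, on either strand, were present in 14 of these 38, 36.8%, against 4.81% of 8662 tested protein-coding genes with a window and 3.29% of 17491 protein-coding genes with a window. Of the mitosis genes, which act later in the cycle, 1 of 24 held them (4.17%), while the CHR letters TTTGAA or TTCGAA, known from promoters active in G2 and mitosis, were present in 18 of 24 mitosis genes (75%), in 9 of 38 members (23.7%) and in 16.4% of the tested genes. The 250 bases before the start are printed for Mcm6 and Mcm5, the members called lower with miR-146a in both LPS and vehicle, with the E2F letters in capitals. The Mcm6 window (GRCm38.p6, chr1:128359706-128359955, minus strand) holds TTTGGCGC from base -110, GCGCGAAA from base -106, overlapping it, and TTTGGCGC from base -47, counted from the start. The Mcm5 window (GRCm38.p6, chr8:75109259-75109508, plus strand) holds TTTCGCGC from base -153 and GCGCCAAA from base -149, which overlap.
Mcm6: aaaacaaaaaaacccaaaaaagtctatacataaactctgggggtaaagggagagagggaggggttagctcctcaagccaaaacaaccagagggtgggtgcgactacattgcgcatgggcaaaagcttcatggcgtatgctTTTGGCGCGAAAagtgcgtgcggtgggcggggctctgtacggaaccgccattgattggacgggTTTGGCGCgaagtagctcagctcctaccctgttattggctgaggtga
Mcm5: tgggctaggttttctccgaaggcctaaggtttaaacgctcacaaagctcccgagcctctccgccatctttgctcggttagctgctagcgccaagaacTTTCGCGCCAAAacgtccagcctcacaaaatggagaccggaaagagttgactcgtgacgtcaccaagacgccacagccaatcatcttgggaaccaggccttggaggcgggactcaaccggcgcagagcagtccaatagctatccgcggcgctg

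The values are estimated counts per gene, given here as CPM, counts per 1e6 counts of the library, after scaling by TMM over all 32 libraries. Library totals ran from 1.12 (VEH_miR-7a replicate 4) to 20.3 (LPS_scramble replicate 4) in units of 1e6 counts, and 32 of the 46 genes were at 10 counts or more in every library. The lowest count of any member was 1, of Ccne2. Small structural RNA genes held 5.40%, 36.6%, 33.01% and 36.4% of the counts in replicates 1 to 4 of VEH_miR-7a and 2.98% to 19.3% in the other libraries. The labels name a glioblastoma cell type: the macrophage markers Cd68, Ptprc and Itgam had medians of 870.3, 452 and 179 CPM, Csf1r and Cx3cr1 medians of 0.645 and 0.618 CPM, and the astrocyte and glioma markers Gfap, Aldh1l1, Aqp4, Olig2 and Sox2 had a median of 0, with 23 to 30 of 32 libraries at 0. Pcna in replicate 3 of LPS_miR-29a was the only member value that could not be restored with certainty, so Pcna was left out of the comparisons with LPS_miR-29a.

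The members differed widely among themselves. Per kilobase of exon, the highest levels in VEH_scramble were those of Pcna, the sliding clamp (58.1 CPM per kb), Pold2, the accessory subunit of polymerase delta (48.1), and Mcm6 (33.3). The lowest were those of Orc1, the large ORC subunit (1.22 CPM per kb), Pole2, the second subunit of polymerase epsilon (1.34), and Ccne2, a cyclin E (1.43). Across groups, 39 of the 46 genes had their highest mean in LPS_miR-7a, 4 in LPS_miR-29a, 2 in LPS_scramble and 1, Cdt1, in VEH_scramble. The lowest mean lay in VEH_miR-146a for 33 genes, in LPS_miR-146a for 6, in VEH_miR-29a for 4 and in VEH_scramble for 3. The highest group mean was 1.60 to 4.83 times the lowest, with Pold2 the least and Pole the most variable and a median of 2.76, and the median coefficient of variation within a group was 21.2%.

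By role, the lowest and the highest of the 8 group means, in CPM, were as follows. For the licensing genes they were Orc1 2.84 to 8.18, Orc6 16.4 to 34.98, Cdc6 5.97 to 21.96, Cdt1 18.5 to 57.5, Mcm2 33.4 to 109, Mcm3 55.4 to 172, Mcm4 41.4 to 109, Mcm5 49.1 to 178, Mcm6 83.4 to 232 and Mcm7 61.4 to 176. Cdt1, the licensing factor destroyed in S phase, stood at 24.4, 130.2, 35.1 and 40.2 CPM in VEH_scramble, so its highest mean rests on replicate 2. For the firing and helicase genes they were Mcm10 13.8 to 63.9, Cdc45 9.70 to 34.8, Cdc7 12.97 to 31.8, Gins1 5.82 to 17.1, Gins2 12.9 to 33.6, Gins3 3.57 to 15.3 and Gins4 17.3 to 29.5. The polymerase and primase genes gave Pola1 36.2 to 83.2, Pola2 19.3 to 51.8, Prim1 7.07 to 26.9, Prim2 19.9 to 43.8, Pole 24.5 to 119, Pole2 3.40 to 10.8, Pold1 24.2 to 69.4 and Pold2 57.8 to 92.5. The clamp and its loader, which opens and closes the ring around DNA, gave Rfc1 85.1 to 152, Rfc2 79.9 to 129, Rfc3 8.95 to 19.5, Rfc4 12.8 to 27.96 and Rfc5 31.2 to 82.996, with Pcna at 94.9 to 198 over the groups whose values were all certain. The single-strand binding and Okazaki genes gave Rpa1 46.6 to 119, Rpa2 14.2 to 40.9, Fen1 19.3 to 48.96 and Lig1 23.5 to 65.1. The nucleotide supply genes gave Rrm1 85.5 to 212, Rrm2 14.1 to 58.95, Tyms 12.5 to 43.2 and Tk1 11.5 to 40.2. The remaining genes were Chaf1a 15.6 to 42.6, Chaf1b 25.6 to 56.6, Slbp 21.2 to 43.8, Ccne1 8.73 to 31.5, Ccne2 4.98 to 20.3, E2f1 23.3 to 41.5 and E2f2 24.3 to 50.8.

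**Figure D1:**
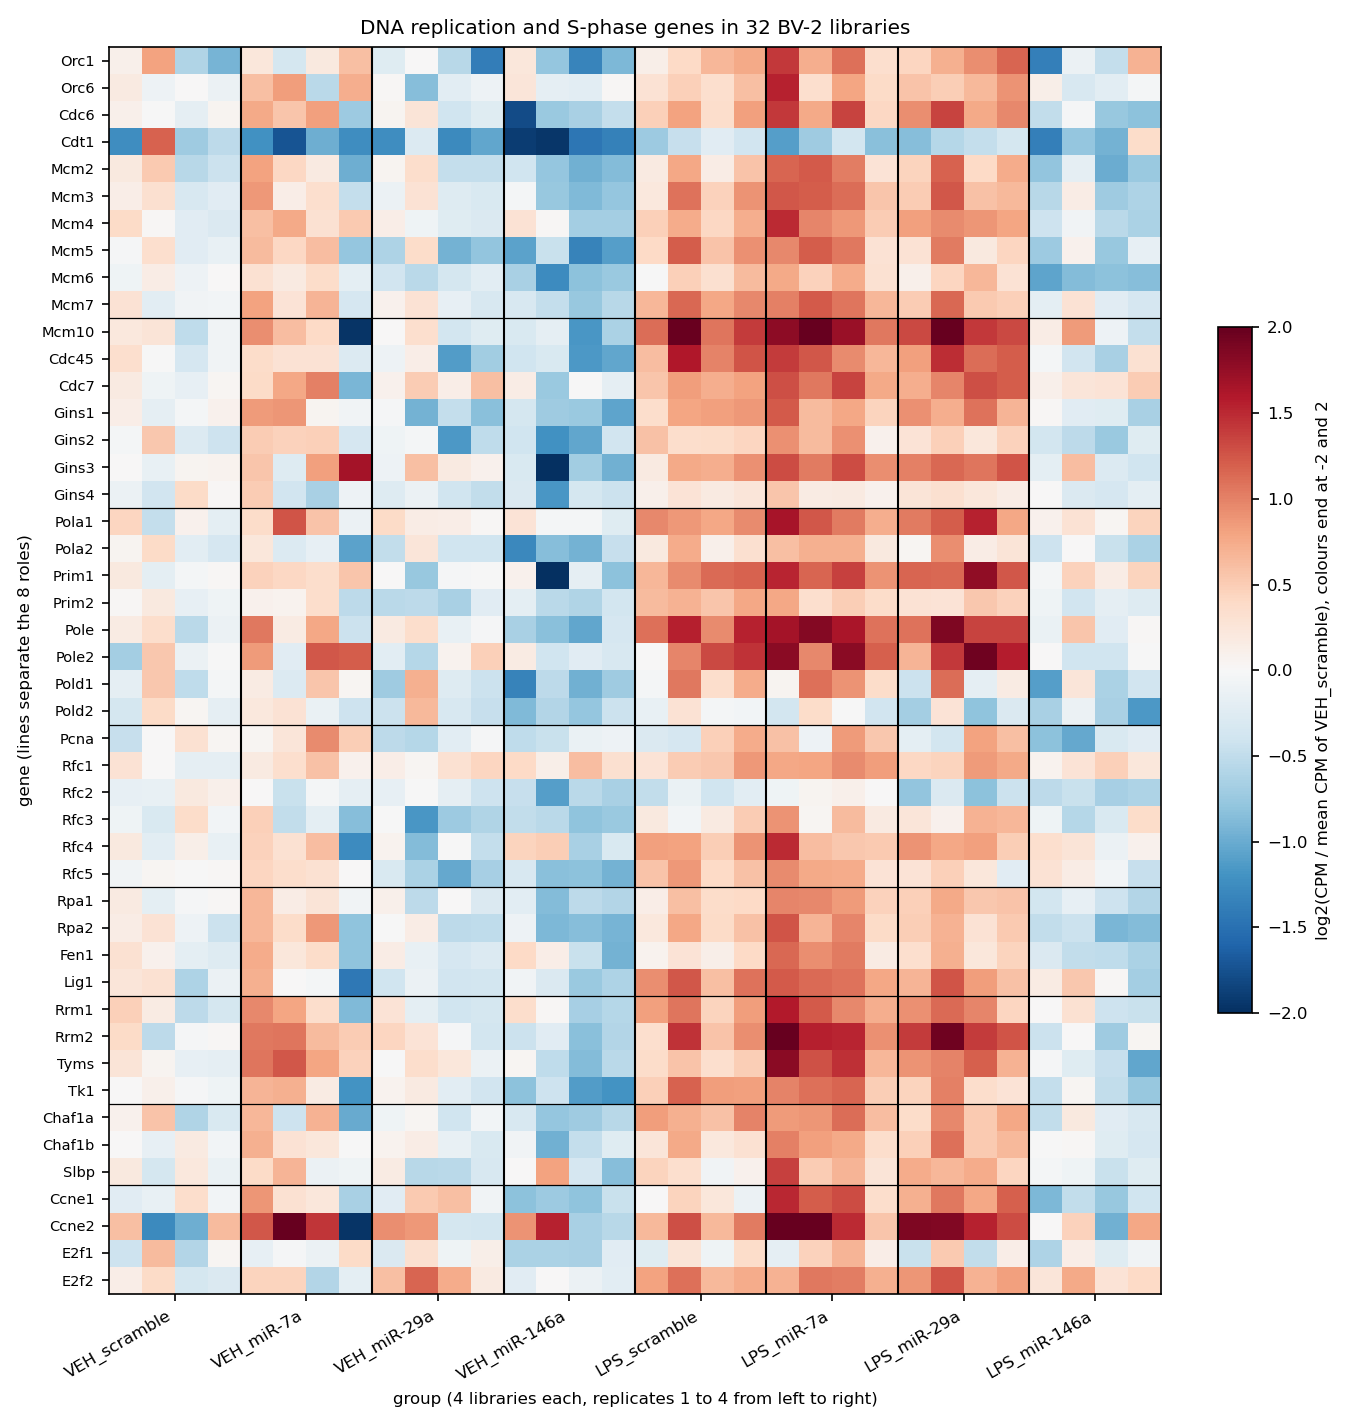
Each row is 1 of the 46 genes, ordered by role, and each column 1 of the 32 libraries, ordered by group and replicate; colour gives the log2 of CPM over the mean of VEH_scramble, with the scale ending at 2 in either direction. Most rows are above that mean in the LPS_scramble, LPS_miR-7a and LPS_miR-29a columns and below it in both miR-146a groups, and replicate 2 of VEH_scramble stands out for Cdt1 (130.2 CPM).

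Summed over the 46 genes, the level was 1915 ± 185 CPM in VEH_scramble, 2290.2 ± 446 CPM in VEH_miR-7a, 1728 ± 179 CPM in VEH_miR-29a and 1373 ± 123 CPM in VEH_miR-146a (SD, n = 4 each). With LPS the sums were 2761 ± 385 CPM in LPS_scramble, 3309 ± 502 CPM in LPS_miR-7a, 2836 ± 363 CPM in LPS_miR-29a and 1573 ± 172 CPM in LPS_miR-146a (SD, n = 4 each). The 4 sums of LPS_scramble, 2349 to 3143, were all above those of VEH_scramble, 1769 to 2156. With miR-146a the ranges overlapped, at 1454 to 1827 CPM under LPS and 1275 to 1553 under vehicle, and both lay below the LPS_scramble libraries. The sums are weighted towards genes with long transcripts and high levels, and are a description with no test.

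**Figure D2:**
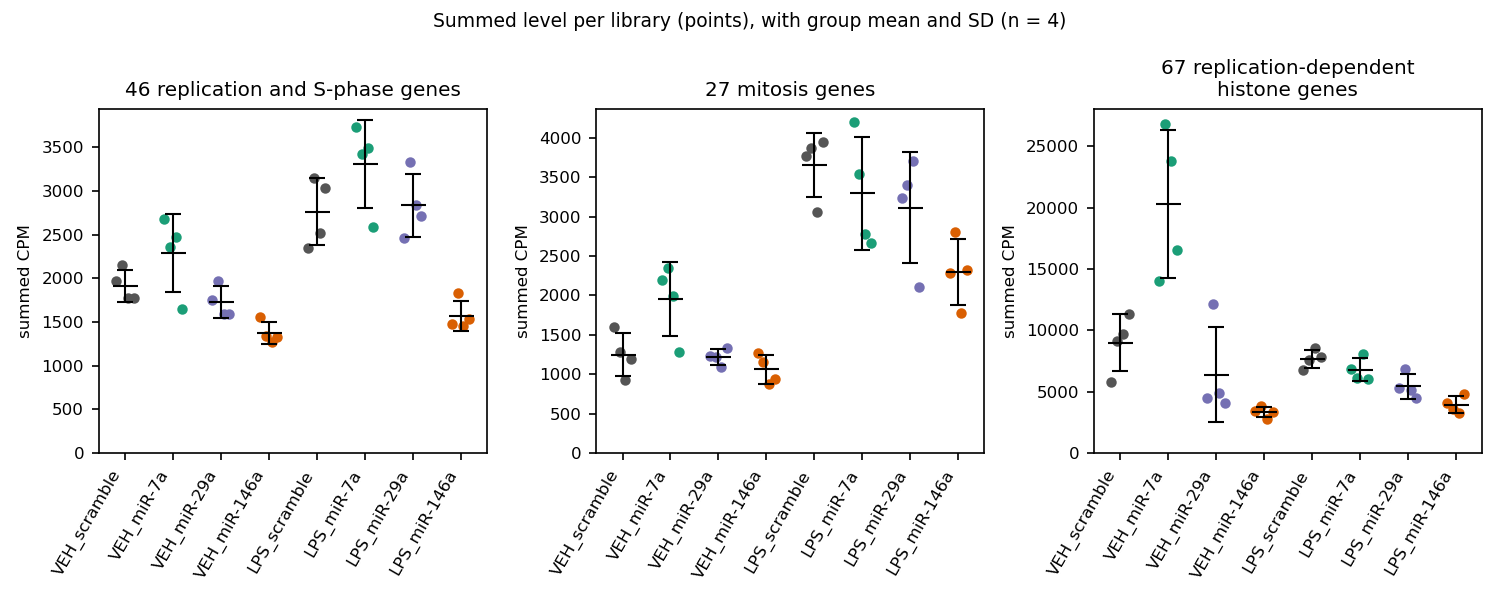
Summed CPM per library (points), with the mean and SD of the 4 libraries of each group, for the 46 replication genes, 27 mitosis genes and 67 replication-dependent histone genes. The replication sums of LPS_miR-146a, 1454 to 1827 CPM, lie below all those of LPS_scramble, 2349 to 3143 CPM.

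With the scramble mimic, LPS raised a large share of the replication genes and lowered none. By limma with Benjamini-Hochberg adjustment over all genes tested, 24 of 46 members rose and 0 fell at an adjusted p under 0.05, where 9.37% of the 12352 genes tested rose, and 35 of 46 had an unadjusted p under 0.05 (76.1% of the members and 33.3% of all genes). The median log2 fold change was 0.64 over the members and 0.01 over all genes. The 4 LPS libraries were all above the 4 vehicle libraries for 23 members, against 11.6% of all genes. By role, 5 of 10 licensing genes rose, 5 of 7 firing genes, 5 of 8 polymerase and primase genes, 3 of 6 clamp and loader genes, 1 of 4 single-strand and Okazaki genes (Lig1), 3 of 4 nucleotide supply genes, 1 of 3 chromatin genes (Chaf1a) and 1 of 4 S-phase entry genes (E2f2).

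Among the helicase genes Mcm10, a replication initiation factor, stood at 43.3, 78.3, 41.8 and 52.2 CPM in LPS_scramble and 23.1, 23.7, 13.97 and 18.9 CPM in VEH_scramble. The lowest LPS library was above the highest vehicle library (log2 fold change 1.45, SE 0.24, adjusted p = 0.00203). Cdc45, a component of the active helicase, was measured at 23.8, 46.9, 30.7 and 37.02 CPM in LPS_scramble and 19.6, 15.4, 12.2 and 14.8 CPM in VEH_scramble, again with no overlap (log2 fold change 1.19, SE 0.23, adjusted p = 0.0052). Mcm7, a subunit of the helicase core, showed 139, 195, 149.8 and 171 CPM in LPS_scramble and 107, 76.05, 83.3 and 84.6 CPM in VEH_scramble, and all 4 LPS values exceeded all 4 vehicle values (log2 fold change 0.90, SE 0.16, adjusted p = 0.0031).

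Of the 8 polymerase and primase genes 5 rose, while Pola2, Pold1 and Pold2 were not called. Pole, the catalytic subunit of the leading-strand polymerase, had levels of 84.8, 117, 76.5 and 115 CPM in LPS_scramble and 44.3, 50.6, 27.4 and 36.4 CPM in VEH_scramble, a separation of the groups with log2 fold change 1.34, SE 0.21, adjusted p = 0.00146. Pola1, the catalytic subunit of polymerase alpha, had levels of 70.2, 66.3, 61.6 and 70.04 CPM in LPS_scramble and 48.6, 26.04, 38.4 and 31.7 CPM in VEH_scramble (log2 fold change 0.92, SE 0.18, adjusted p = 0.00636), with the LPS libraries close together and the vehicle libraries more spread. The primase subunits followed: Prim1 was at 16.7, 20.2, 22.9 and 23.7 CPM in LPS_scramble and 11.96, 9.17, 10.2 and 10.7 CPM in VEH_scramble (log2 fold change 1.02, SE 0.18, adjusted p = 0.00316). Prim2 was at 42.9, 44.4, 40.7 and 47.03 CPM in LPS_scramble and 27.96, 31.7, 24.6 and 25.999 CPM in VEH_scramble (log2 fold change 0.69, SE 0.14, adjusted p = 0.00723). Neither primase gene overlapped between the groups. Tk1, the thymidine kinase that salvages thymidine in S phase, was at 28.7, 46.7, 36.8 and 36.3 CPM in LPS_scramble and 20.7, 22.2, 20.3 and 19.4 CPM in VEH_scramble and did not overlap either (log2 fold change 0.88, SE 0.17, adjusted p = 0.00535).

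Of the 22 members that did not pass the test, Rfc2, a clamp loader subunit, had the lowest estimate, -0.28 (95% interval -0.60 to 0.03), and Cdt1 the only other one below 0, -0.02 (-0.85 to 0.80). Pold2 was at 0.07 (-0.31 to 0.45) and Ccne1, the other cyclin E, at 0.19 (-0.23 to 0.62). Structural RNA genes held 3.04% to 5.92% of counts in LPS_scramble and 6.89% to 12.4% in VEH_scramble, and their part in the result was not tested. The count of called members depended on single libraries: 13 rose without LPS_scramble replicate 4, 13 without VEH_scramble replicate 4 and 15 without VEH_scramble replicate 3, with a median log2 fold change of 0.58 to 0.71 over all 8 omissions. With GC content and gene length trends removed 18 rose, and 16 of the 24 reported calls were kept. With the replicate number as a block 25 rose, where 12.5% of all genes did.

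The same contrast in cells with the miR-29a mimic, which shares no library with the scramble comparison, raised 38 of 45 members and lowered 0, where 12.8% of 12238 genes rose. The median log2 fold change was 0.85 over the members and -0.01 over all genes. All 7 firing genes, 9 of 10 licensing genes, 6 of 8 polymerase and primase genes, 4 of 4 single-strand and Okazaki genes, 4 of 4 nucleotide supply genes, 3 of 3 chromatin genes, 3 of 5 clamp and loader genes and 2 of 4 S-phase entry genes rose. Of the 24 members that rose with scramble, 22 (91.7%) also rose here, and they made up 57.9% of the 38. Since 38 of all 45 rose here, most of any set of members would be shared. Same-numbered libraries of scramble and miR-29a also deviated together in both conditions, so the comparisons are not independent. Rfc2, named here after its values were seen, was at 73.3, 104, 72.1 and 93.98 CPM in LPS_miR-29a and 113, 126, 112 and 95.2 CPM in VEH_miR-29a, with every LPS library but replicate 2 below the lowest vehicle library, and was not called (log2 fold change -0.40, SE 0.15, adjusted p = 0.0739). With the replicate number as a block, Rfc2 fell (-0.40, adjusted p = 0.0275), 1 member lower, and 39 members rose, where 19.5% and 18% of all genes did. With GC content and gene length removed in that fit Rfc2 also fell, and 40 rose, where 18.1% and 15.3% of all genes did. Without LPS_miR-29a replicate 2 it fell too, and 36 rose (15.5% and 14.2% of all genes). Structural RNA genes held 2.98% to 4.82% of counts in LPS_miR-29a and 4.57% to 19.3% in VEH_miR-29a, highest in replicate 2, and their part in the result was not tested.

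Mcm4, a helicase core subunit, was the member with the smallest adjusted p, at 95.8, 105, 100.2 and 94.4 CPM in LPS_miR-29a and 59.6, 51.5, 45.99 and 44.7 CPM in VEH_miR-29a (log2 fold change 0.98, SE 0.13, adjusted p = 0.000333). Its groups were far apart compared with their spread. Pole stood at 83.99, 144, 102 and 101 CPM in LPS_miR-29a and 44.98, 50.6, 35.7 and 39.2 CPM in VEH_miR-29a (log2 fold change 1.33, SE 0.18, adjusted p = 0.00035), and Mcm10 at 49.8, 92.6, 52.96 and 49.4 CPM in LPS_miR-29a and 20.05, 25.1, 15.4 and 16.8 CPM in VEH_miR-29a (log2 fold change 1.68, SE 0.24, adjusted p = 0.000514). Replicate 2 was the highest LPS library for both genes. Cdc45 was at 27.2, 42.9, 33.5 and 35.7 CPM in LPS_miR-29a and 14.4, 16.96, 7.10 and 9.57 CPM in VEH_miR-29a (log2 fold change 1.69, SE 0.25, adjusted p = 0.000549), the largest estimate among the members. Gins1, a GINS subunit of the helicase, was at 17.7, 15.7, 19.98 and 15.03 CPM in LPS_miR-29a and 9.25, 4.89, 6.76 and 5.29 CPM in VEH_miR-29a (log2 fold change 1.42, SE 0.23, adjusted p = 0.00106). Lig1, the ligase that seals Okazaki fragments, was at 49.6, 74.5, 55.8 and 46.6 CPM in LPS_miR-29a and 23.6, 28.7, 23.8 and 24.1 CPM in VEH_miR-29a (log2 fold change 1.16, SE 0.18, adjusted p = 0.000721). Prim1 was at 23.5, 23.2, 35.8 and 24.9 CPM in LPS_miR-29a and 10.5, 6.20, 10.3 and 10.4 CPM in VEH_miR-29a (log2 fold change 1.46, SE 0.24, adjusted p = 0.00106), with vehicle replicate 2 the lowest and LPS replicate 3 the highest library. None of these genes overlapped between the groups.

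**Figure D3:**
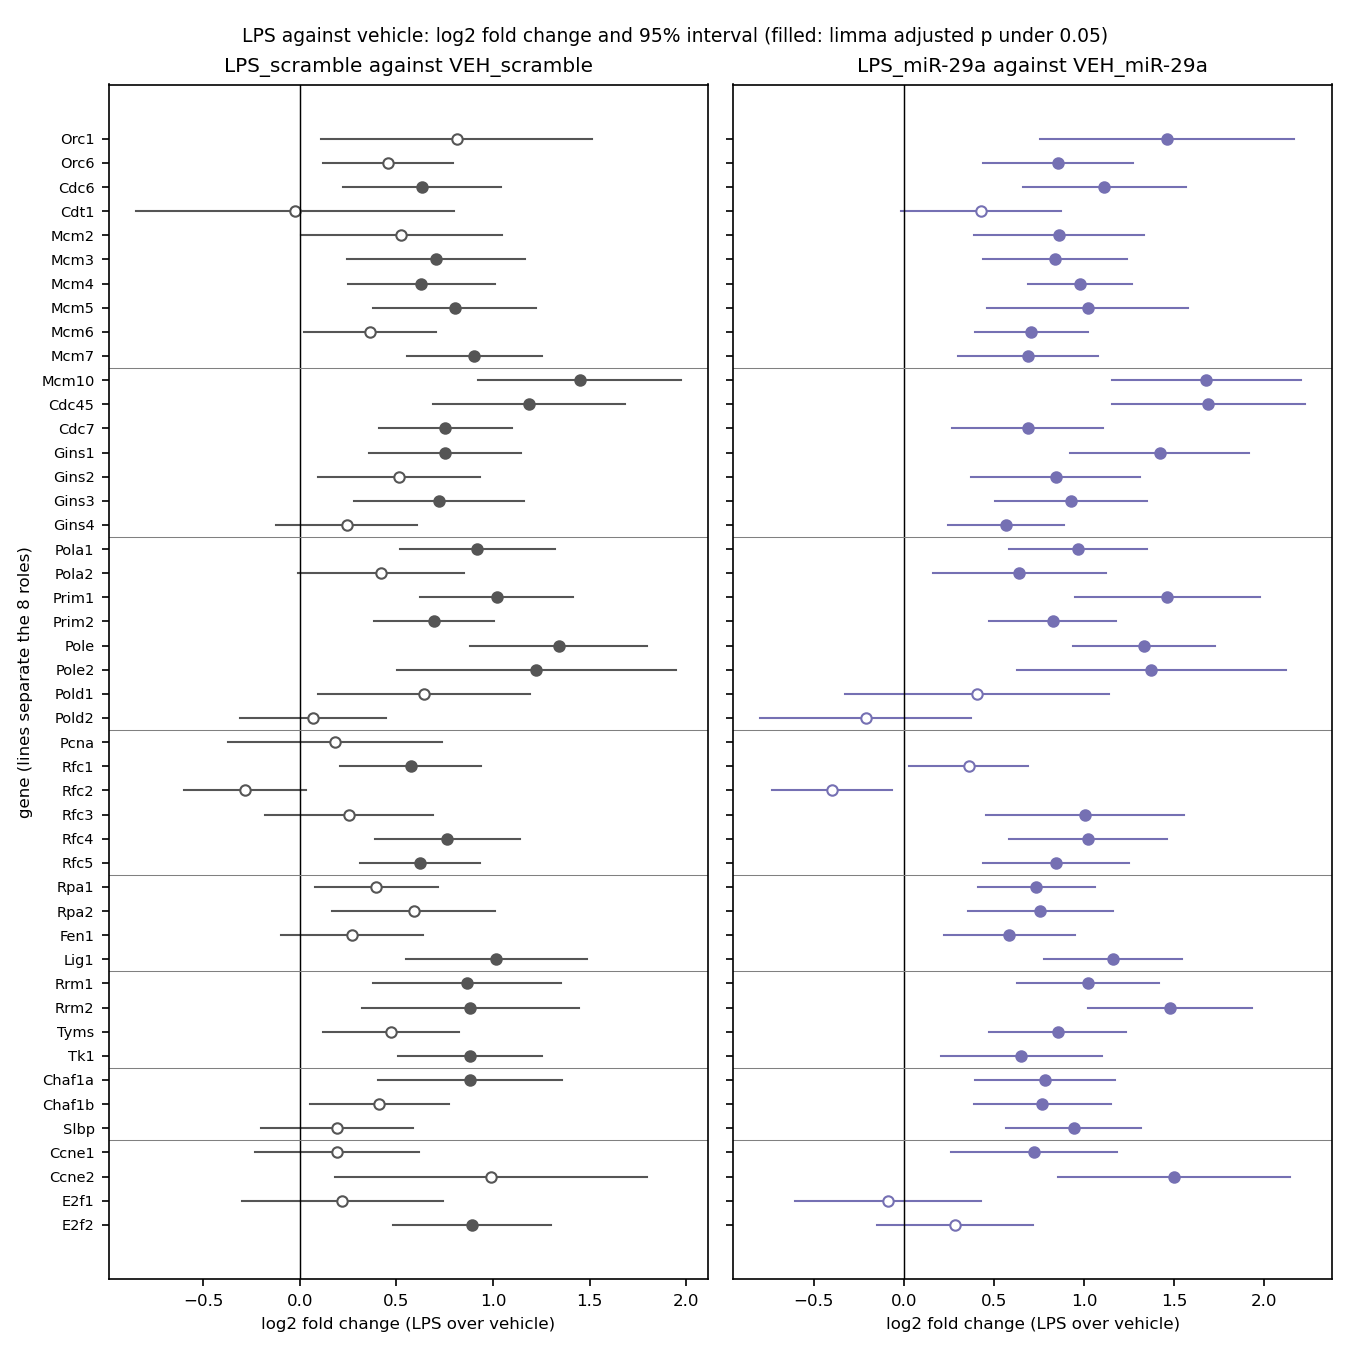
Log2 fold change of LPS over vehicle with its 95% interval for each gene, with the scramble mimic and with the miR-29a mimic; filled points mark an adjusted p under 0.05. Filled points number 24 of 46 with scramble and 38 of 45 with miR-29a, and all of them lie above 0.

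In cells with the miR-7a mimic no member was called for LPS over vehicle by limma (0 of 46), where 6.64% of 11866 genes changed in either direction, and 14 members had an unadjusted p under 0.05 (30.4% of the members and 20.5% of all genes). The estimates were above 0 for 45 of 46 members, with a median of 0.47 against 0.03 over all genes. The smallest adjusted p belonged to Pole, at 125, 142, 123 and 84.5 CPM in LPS_miR-7a and 82.1, 44.6, 67.6 and 29.5 CPM in VEH_miR-7a (log2 fold change 0.91, SE 0.26, adjusted p = 0.0531). Rfc1, the large clamp loader subunit, was at 145, 148, 164 and 153 CPM in LPS_miR-7a and 95.9, 107, 128 and 89.9 CPM in VEH_miR-7a (log2 fold change 0.51, SE 0.15, adjusted p = 0.0597), and Mcm10 at 69.1, 79.4, 65.9 and 41.3 CPM in LPS_miR-7a and 37.8, 30.6, 26.2 and 5.14 CPM in VEH_miR-7a (log2 fold change 1.15, SE 0.38, adjusted p = 0.0912). For these 3 genes the groups did not overlap, and the vehicle values of Mcm10 reached from 5.14 CPM in replicate 4, the shallowest library, to 37.8 CPM. The structural RNA share was 3.09% to 3.44% in LPS_miR-7a and 5.40% to 36.6% in VEH_miR-7a, and its part in this result was not tested. Other tools called 4 members higher (edgeR quasi-likelihood, 3.31% of all genes) and 9 members higher (DESeq2, 4.52%). In a limma fit with the replicate number as a block 21 members were called higher, where 6.7% of all genes were. With GC content and gene length removed in that fit 14 were called higher, against 4.79% of all genes. The absence of calls therefore depended on the fit.

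With the miR-146a mimic LPS raised 1 of 46 members, Rfc5, and lowered 0, where 2.86% of 12129 genes rose. The median was 0.30 over the members and -0.02 over all genes, and 15 members had an unadjusted p under 0.05 (32.6% of the members and 18.4% of all genes). Rfc5, a clamp loader subunit, was at 62.4, 56.3, 49.2 and 37.2 CPM in LPS_miR-146a and 40.7, 28.5, 29.1 and 26.6 CPM in VEH_miR-146a (log2 fold change 0.83, SE 0.18, adjusted p = 0.0182), with LPS replicate 4 inside the vehicle range. Rfc5 lost its call without LPS_miR-146a replicate 1 or VEH_miR-146a replicate 2, 3 or 4. In the first 3 of these 0 members were called, and in the last 1 other member was. It also lost it with GC content and gene length trends removed, when 1 other member was called, and in a limma-trend fit without that removal, when 0 were. DESeq2 called 3 members higher, against 4.02% of all genes. With the replicate number as a block 4 were called higher, against 3.84% of all genes. Pole, at 36.1, 58.5, 33.8 and 40.5 CPM in LPS_miR-146a and 25.3, 22.2, 19.3 and 31.4 CPM in VEH_miR-146a, did not overlap but was not called (log2 fold change 0.79, SE 0.22, adjusted p = 0.063). E2f2, an activating E2F factor, was at 31.3, 44.999, 32.2 and 35.03 CPM in LPS_miR-146a and 22.8, 26.7, 24.5 and 23.04 CPM in VEH_miR-146a and was likewise uncalled (log2 fold change 0.53, SE 0.17, adjusted p = 0.11). In the same comparison 22 of 27 mitosis genes rose, with a median of 1.21.

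Under LPS the miR-146a mimic lowered 24 of the 46 replication genes and raised 0, where 1.61% of 12672 genes fell, and 42 members had an unadjusted p under 0.05 (91.3% of the members and 17.5% of all genes). All 46 estimates were below 0, with a median of -0.86 against -0.01 over all genes. All 4 libraries of LPS_miR-146a were below all 4 of LPS_scramble for 33 members, against 5.6% of all genes. By role 7 of 10 licensing genes fell, 4 of 7 firing genes, 5 of 8 polymerase and primase genes, 3 of 4 single-strand and Okazaki genes, 4 of 4 nucleotide supply genes and 1 of 3 chromatin genes. No clamp, loader or S-phase entry gene passed the test (0 of 6 and 0 of 4), although their median estimates were -0.52 and -0.62.

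Mcm6, a helicase core subunit, had the smallest adjusted p. Its levels were 74.5, 84.99, 88.2 and 85.9 CPM in LPS_miR-146a and 154, 215, 193 and 242 CPM in LPS_scramble, so that the highest value with the mimic was well below the lowest with scramble (log2 fold change -1.27, SE 0.14, adjusted p = 0.0034). The other helicase core genes at the head of the list were Mcm4, at 40.9, 51.97, 37.7 and 35.03 CPM in LPS_miR-146a and 75.5, 90.8, 72.8 and 90.4 CPM in LPS_scramble (log2 fold change -0.995, SE 0.14, adjusted p = 0.00914), and Mcm7. Mcm7 was at 76.7, 108, 74.9 and 69.8 CPM in LPS_miR-146a and 139, 195, 149.8 and 171 CPM in LPS_scramble (log2 fold change -0.999, SE 0.15, adjusted p = 0.0121), with replicate 2 the highest library of both groups. Cdc45 was at 15.1, 11.9, 9.91 and 19.2 CPM in LPS_miR-146a and 23.8, 46.9, 30.7 and 37.02 CPM in LPS_scramble (log2 fold change -1.47, SE 0.23, adjusted p = 0.0149), the largest estimate of the members.

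Pole, at 36.1, 58.5, 33.8 and 40.5 CPM in LPS_miR-146a and 84.8, 117, 76.5 and 115 CPM in LPS_scramble, fell to less than its lowest scramble value in every library (log2 fold change -1.25, SE 0.20, adjusted p = 0.0149). Prim2 was at 25.9, 21.2, 24.2 and 22.99 CPM in LPS_miR-146a and 42.9, 44.4, 40.7 and 47.03 CPM in LPS_scramble, with little spread on either side (log2 fold change -0.90, SE 0.13, adjusted p = 0.00914). Rpa2, a subunit of the single-strand binding protein RPA, was at 15.9, 16.7, 11.97 and 12.3 CPM in LPS_miR-146a and 25.9, 38.5, 29.4 and 33.7 CPM in LPS_scramble (log2 fold change -1.19, SE 0.17, adjusted p = 0.00914). Tk1 was at 14.9, 21.2, 14.7 and 12.2 CPM in LPS_miR-146a and 28.7, 46.7, 36.8 and 36.3 CPM in LPS_scramble (log2 fold change -1.26, SE 0.18, adjusted p = 0.00994). None of these 8 genes overlapped between the groups. Of the 4 members with miR-146a letters in the 3′ UTR 3 fell, with a median of -0.84, as did 21 of the 42 without, with a median of -0.86; Rfc1, shown above with an 8-letter match, was at -0.30 (SE 0.14, adjusted p = 0.295) and was not called.

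The number of called members depended on single libraries more than the estimates did. It was 1 without LPS_miR-146a replicate 3, 5 without LPS_scramble replicate 4 and 9 without LPS_miR-146a replicate 1, against 16 to 25 in the other 5 omissions, while all 46 estimates stayed below 0 and the median stayed between -0.90 and -0.79 in all 8. With the replicate number as a block 35 members fell, where 5.77% of all genes did. With GC content and gene length trends removed, without the block, 19 fell, and 18 of the 24 reported calls were kept.

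Under vehicle the miR-146a mimic lowered 3 of 46 members, Mcm6, Rfc5 and Mcm5, and raised 0, where 1.13% of 11841 genes fell. Estimates were below 0 for 43 members, 30 had an unadjusted p under 0.05 (65.2% of the members and 25.4% of all genes), and the median was -0.56 against 0.01 over all genes. The groups did not overlap for 17 members, lower with the mimic, against 8.18% of all genes. Structural RNA genes held 4.04% to 7.39% of counts in VEH_miR-146a and 6.89% to 12.4% in VEH_scramble, and their part in the result was not tested. Mcm6 was at 98.8, 65.2, 87.7 and 93.02 CPM in VEH_miR-146a and 146.4, 173, 145 and 157 CPM in VEH_scramble (log2 fold change -0.84, SE 0.16, adjusted p = 0.0269), and Rfc5 at 40.7, 28.5, 29.1 and 26.6 CPM in VEH_miR-146a and 48.8, 52.6, 50.8 and 52.1 CPM in VEH_scramble (log2 fold change -0.75, SE 0.16, adjusted p = 0.0386). Both lay below every scramble library, as did Mcm5 (log2 fold change -0.92, SE 0.21, adjusted p = 0.0448). Mcm5 and Mcm6 were called lower in both conditions, 2 of the 24 called under LPS (8.33%) and 2 of the 3 called under vehicle (66.7%). Without VEH_scramble replicate 1, 7 members fell. Without VEH_miR-146a replicate 2 or VEH_scramble replicate 2, 1 fell, and each of the other 5 omissions left 0, with a median of -0.64 to -0.50 in all 8. DESeq2 called 12 members lower in this comparison (5.18% of all genes) and edgeR's quasi-likelihood test 2 (1.37%). With the replicate number as a block 6 fell, where 3.24% of all genes did.

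**Figure D4:**
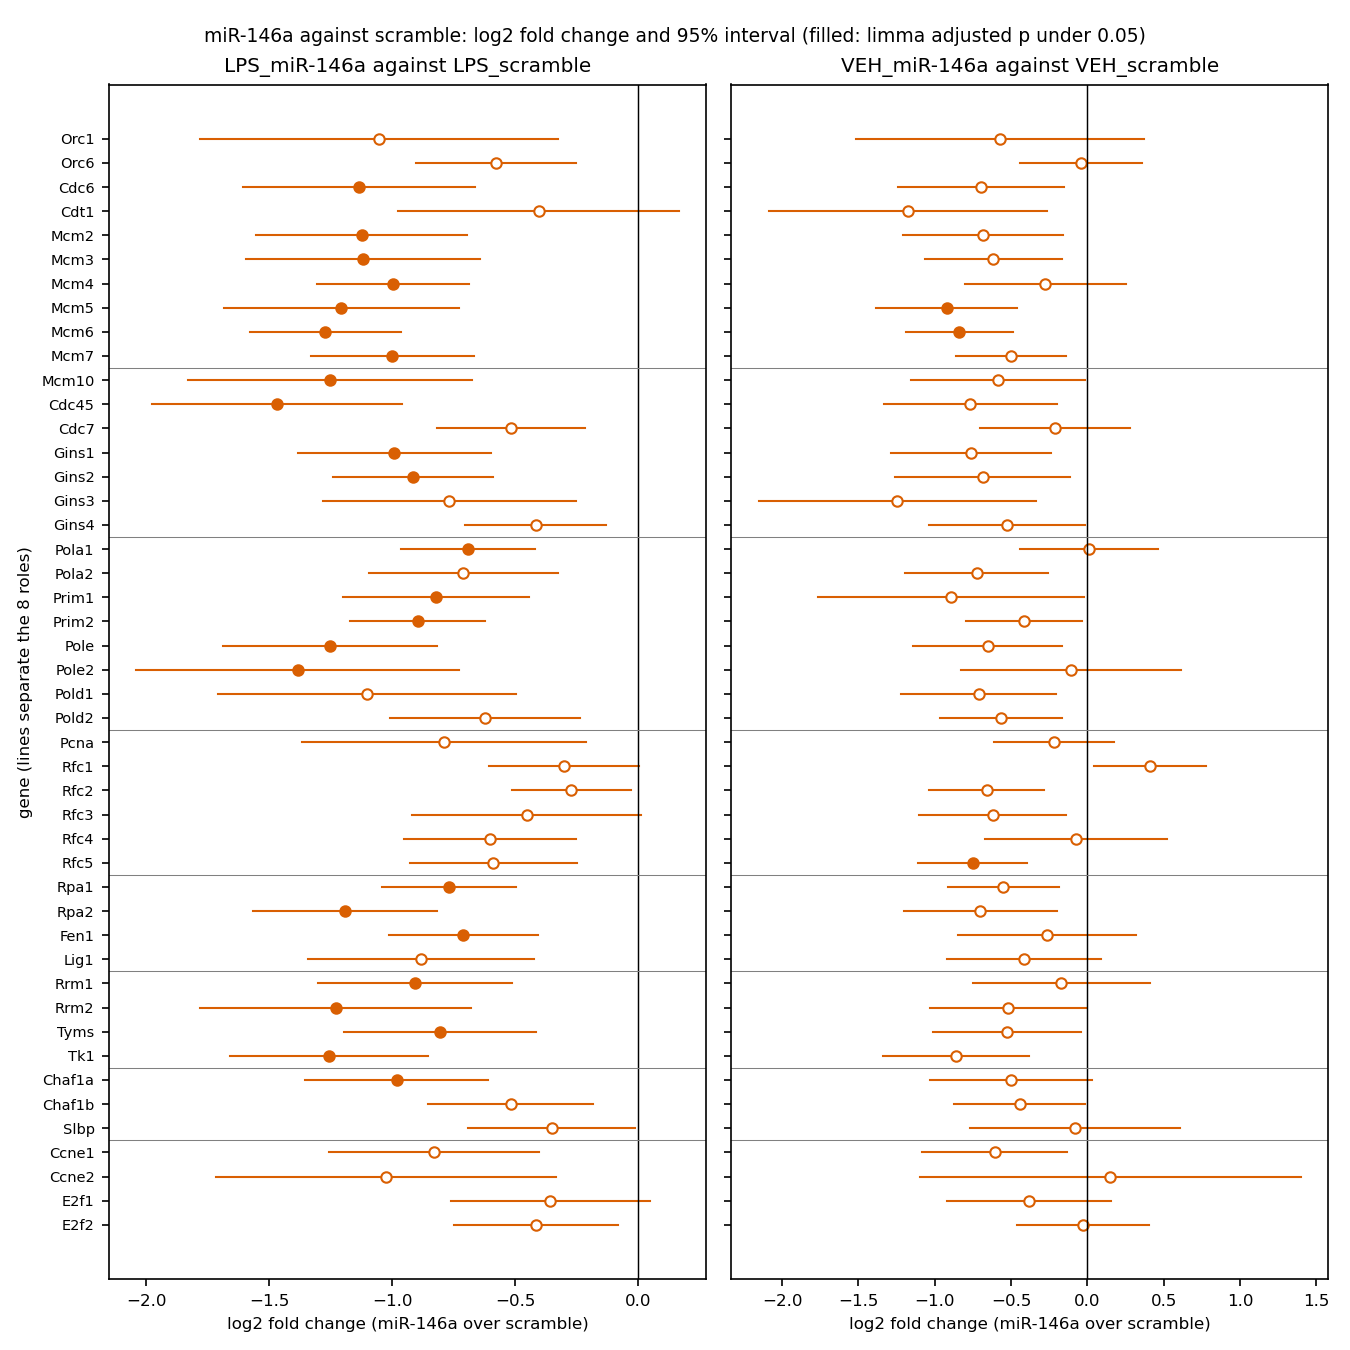
Log2 fold change of miR-146a over scramble with its 95% interval for each gene, under LPS and under vehicle; filled points mark an adjusted p under 0.05. Under LPS all 46 estimates lie below 0 and 24 are filled, while under vehicle 43 lie below 0 and 3 are filled.

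The miR-7a mimic gave mostly higher estimates, which did not pass the test. Under LPS 41 estimates were above 0 and 5 below, and under vehicle 43 were above and 3 below. Under LPS 0 of 46 members were called by limma, where 2.7% of 13054 genes changed in either direction, with 10 members at an unadjusted p under 0.05 (21.7% of the members and 17.5% of all genes) and a median of 0.26 against 0.01 over all genes. Tyms, the thymidylate synthase, came nearest, at 58.7, 40.8, 46.5 and 26.7 CPM in LPS_miR-7a and 21.6, 24.9, 21.3 and 23.6 CPM in LPS_scramble, all above the scramble range (log2 fold change 0.83, SE 0.21, adjusted p = 0.0626). Ccne1 was at 40.3, 32.6, 35.1 and 18.1 CPM in LPS_miR-7a and 14.2, 19.1, 16.5 and 13.05 CPM in LPS_scramble, with replicate 4 inside that range (log2 fold change 0.92, SE 0.24, adjusted p = 0.0678). Rpa1, the large RPA subunit, was at 132, 130.4, 121 and 92.6 CPM in LPS_miR-7a and 74.1, 102, 86.7 and 88.3 CPM in LPS_scramble (log2 fold change 0.41, SE 0.14, adjusted p = 0.157). With the replicate number as a block, 2 members were called higher, against 4.32% of all genes. With GC content and gene length removed in that fit, 6 were called higher and 2 lower, against 9.04% and 10.5% of all genes. Without LPS_miR-7a replicate 4, 3 were called higher, against 1.55% of all genes. edgeR's quasi-likelihood test called 2 higher (1.63% of all genes) and DESeq2 3 (3.08%).

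Under vehicle 0 of 46 members were called for miR-7a, where 0.0539% of 11141 genes changed in either direction. The median was 0.40 against -0.01 over all genes, and 8 members had an unadjusted p under 0.05 (17.4% of the members and 12.7% of all genes). The 3 smallest adjusted p belonged to Tyms, Rrm2 and Mcm4. Tyms was at 35.2, 39.7, 29.2 and 23.1 CPM in VEH_miR-7a and 20.04, 17.5, 14.99 and 14.9 CPM in VEH_scramble (log2 fold change 0.99, SE 0.22, adjusted p = 0.113), and Rrm2, the S-phase subunit of ribonucleotide reductase, at 41.3, 42.1, 31.1 and 28.3 CPM in VEH_miR-7a and 26.2, 13.9, 19.6 and 20.3 CPM in VEH_scramble (log2 fold change 0.90, SE 0.24, adjusted p = 0.185). The groups did not overlap for either. Mcm4 was at 82.8, 92.6, 67.6 and 78.3 CPM in VEH_miR-7a and 71.1, 55.6, 46.7 and 44.7 CPM in VEH_scramble, where they did (log2 fold change 0.60, SE 0.20, adjusted p = 0.267). DESeq2 called 1 member higher (0.997% of all genes). With the replicate number as a block 2 were called higher, where 1.76% of all genes were. Structural RNA genes held 5.40% to 36.6% of counts in VEH_miR-7a and 6.89% to 12.4% in VEH_scramble, and their part in the result was not tested.

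The miR-29a mimic under LPS raised 1 of 45 members, Ccne1, and lowered 0, where 2.07% of 13304 genes rose. The median over the members was 0.08, against -0.00 over all genes. Ccne1 was at 23.2, 29.3, 24.03 and 32.2 CPM in LPS_miR-29a and 14.2, 19.1, 16.5 and 13.05 CPM in LPS_scramble, with no overlap (log2 fold change 0.77, SE 0.17, adjusted p = 0.0267). Its 3′ UTR holds letters that pair with bases 2 to 7 of miR-29a, shown in capitals (chr7:38098256-38098262, minus strand, GRCm38).
Ccne1: tgctaaggagGGTGCTActtgacccac

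Tyms, at 31.3, 33.6, 38.4 and 27.3 CPM in LPS_miR-29a and 21.6, 24.9, 21.3 and 23.6 CPM in LPS_scramble (log2 fold change 0.50, SE 0.14, adjusted p = 0.0619), and Ccne2, at 18.2, 17.9, 14.4 and 12.3 CPM in LPS_miR-29a and 7.80, 12.1, 7.83 and 10.2 CPM in LPS_scramble (log2 fold change 0.67, SE 0.19, adjusted p = 0.0668), were above their scramble values in every library and were not called. With the replicate number as a block, 2 members rose and 1 fell, against 4.07% and 5.78% of all genes. With GC content and gene length removed in the same fit 10 rose and 5 fell, where 8.57% and 11.8% of all genes did. Ccne1 was no longer called without LPS_scramble replicate 1, 3 or 4, when 0 members passed, or without LPS_miR-29a replicate 4, when 1 other member did. Under vehicle the same mimic changed 0 of 46 members by limma, where 0.00854% of 11716 genes changed in either direction, with 6 members at an unadjusted p under 0.05 (13% of the members and 10.4% of all genes) and 0 called by edgeR's quasi-likelihood test and DESeq2. The median was -0.14 against 0.01 over all genes. Rfc5 was nearest to the threshold, at 41.4, 32.9, 25.2 and 32.3 CPM in VEH_miR-29a and 48.8, 52.6, 50.8 and 52.1 CPM in VEH_scramble (log2 fold change -0.66, SE 0.17, adjusted p = 0.257). E2f2 was at 40.4, 59.4, 44.3 and 30.2 CPM in VEH_miR-29a and 29.1, 34.6, 20.8 and 21.8 CPM in VEH_scramble (log2 fold change 0.69, SE 0.24, adjusted p = 0.338), and Mcm6 at 119, 107, 121 and 134 CPM in VEH_miR-29a and 146.4, 173, 145 and 157 CPM in VEH_scramble (log2 fold change -0.36, SE 0.14, adjusted p = 0.403). Rfc5 and Mcm6 did not overlap and were lower with the mimic, while E2f2 overlapped.

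Whether a mimic acted differently under LPS than under vehicle was tested as an interaction over the 4 groups concerned, and no member was called for any mimic. For miR-146a the median interaction was -0.40 against -0.02 over all genes, 7 members had an unadjusted p under 0.05 (15.2% of the members and 11.1% of all genes), and 0% of 12461 genes were called. Its smallest adjusted p belonged to Rfc1, at -0.67 (SE 0.22, adjusted p = 0.346), Pola1, at -0.66 (SE 0.24, adjusted p = 0.364), and Pole2, at -1.24 (SE 0.45, adjusted p = 0.375). Pola1 was at 38.5, 44.5, 37.1 and 49.3 CPM in LPS_miR-146a and 70.2, 66.3, 61.6 and 70.04 CPM in LPS_scramble, and at 43.8, 35.4, 35.2 and 30.5 CPM in VEH_miR-146a and 48.6, 26.04, 38.4 and 31.7 CPM in VEH_scramble. Rfc1 was at 89.7, 103, 119 and 99.6 CPM in LPS_miR-146a and 103, 121, 123 and 156 CPM in LPS_scramble, and at 112, 92.2, 129.9 and 106 CPM in VEH_miR-146a and 104, 85.2, 75.4 and 75.2 CPM in VEH_scramble, and is 1 of the 3 members whose estimate for the mimic under vehicle was above 0. Pole2 was at 3.88, 2.94, 2.94 and 3.83 CPM in LPS_miR-146a and 3.90, 7.60, 9.66 and 10.6 CPM in LPS_scramble, and at 4.32, 2.95, 3.29 and 3.11 CPM in VEH_miR-146a and 2.42, 5.62, 3.56 and 3.86 CPM in VEH_scramble. The larger number of called members under LPS is therefore not shown to be a larger effect of the mimic there.

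For miR-7a the median interaction was -0.22, 1 member had an unadjusted p under 0.05 (2.17% of the members and 5.38% of all genes), and 0.0163% of 12260 genes were called. The nearest members were Rfc2, at 0.41 (SE 0.19, adjusted p = 0.889), Gins1, at -0.62 (SE 0.32, adjusted p = 0.925), and Mcm7, at -0.40 (SE 0.27, adjusted p = 0.925). Rfc2 was at 120.1, 132, 137 and 127 CPM in LPS_miR-7a and 90.4, 116, 96.3 and 109 CPM in LPS_scramble, and at 128, 93.4, 123 and 112 CPM in VEH_miR-7a and 113, 114, 145.5 and 136 CPM in VEH_scramble. Gins1 was at 22.03, 14.7, 16.2 and 12.8 CPM in LPS_miR-7a and 12.1, 16.4, 16.6 and 17.1 CPM in LPS_scramble, and at 16.97, 17.4, 9.75 and 8.99 CPM in VEH_miR-7a and 10.3, 8.29, 9.14 and 9.96 CPM in VEH_scramble. Mcm7 was at 177, 205, 184 and 139 CPM in LPS_miR-7a and 139, 195, 149.8 and 171 CPM in LPS_scramble, and at 153, 107, 141 and 69.4 CPM in VEH_miR-7a and 107, 76.05, 83.3 and 84.6 CPM in VEH_scramble, with VEH_miR-7a replicate 4 the lowest. For miR-29a the median was 0.25, 3 members had an unadjusted p under 0.05 (6.67% of the members and 6.45% of all genes), and 0.0161% of 12422 genes were called. The nearest were Slbp, Gins1, at 0.70 (SE 0.27, adjusted p = 0.669), and Rfc3, a clamp loader subunit, at 0.78 (SE 0.32, adjusted p = 0.683). Gins1 was at 17.7, 15.7, 19.98 and 15.03 CPM in LPS_miR-29a and 12.1, 16.4, 16.6 and 17.1 CPM in LPS_scramble, and at 9.25, 4.89, 6.76 and 5.29 CPM in VEH_miR-29a and 10.3, 8.29, 9.14 and 9.96 CPM in VEH_scramble. Rfc3 was at 16.5, 14.8, 22.7 and 22.1 CPM in LPS_miR-29a and 15.96, 13.4, 15.9 and 19.9 CPM in LPS_scramble, and at 13.9, 6.20, 8.45 and 9.16 CPM in VEH_miR-29a and 13.1, 11.2, 18.03 and 13.5 CPM in VEH_scramble. edgeR's quasi-likelihood test and DESeq2 likewise called 0 members in each of the 3 interactions.

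**Figure D5:**
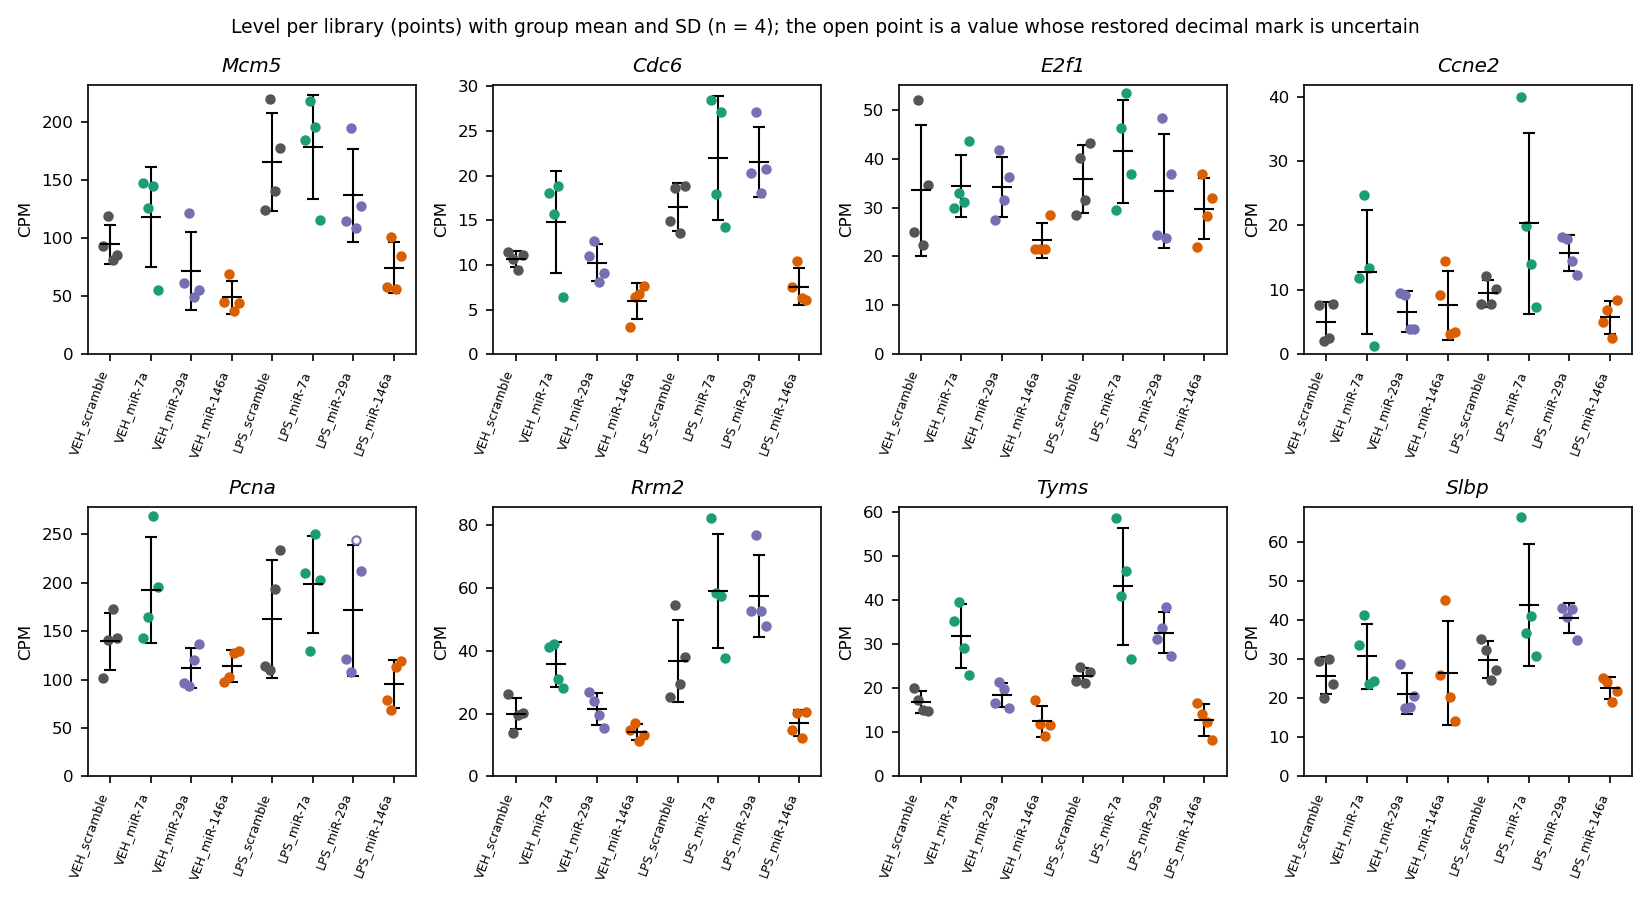
CPM of Mcm5, Cdc6, E2f1, Ccne2, Pcna, Rrm2, Tyms and Slbp in each library (points), with the mean and SD of the 4 libraries of each group; the open point is the uncertain Pcna value. Cdc6 in LPS_miR-146a lies between 6.02 and 10.5 CPM, below all 4 LPS_scramble libraries at 13.5 to 18.9 CPM, while E2f1 overlaps in every comparison.

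Mcm5, a subunit of the MCM2-7 helicase (ENSMUSG00000005410, chromosome 8, 75109569 to 75128439, plus strand), was the licensing gene followed in every comparison. Under vehicle Mcm5 stood at 93.2, 119, 81.03 and 85.5 CPM with scramble, at 147, 126, 145 and 55.2 with miR-7a, at 61.4, 122, 49.4 and 55.1 with miR-29a and at 45.1, 69.5, 37.6 and 44.1 with miR-146a. Under LPS the levels of Mcm5 were 124, 219, 141 and 178 CPM with scramble, 184, 219, 196 and 115 with miR-7a, 115, 195, 109 and 128 with miR-29a and 57.5, 101, 56.004 and 84.3 with miR-146a. The 4 libraries of LPS_scramble were above those of VEH_scramble, and both miR-146a groups were below their scramble groups in every library. LPS over vehicle gave Mcm5 a log2 fold change of 0.80 (SE 0.19, adjusted p = 0.0158) with scramble, 0.49 (SE 0.27, adjusted p = 0.329) with miR-7a, 1.02 (SE 0.26, adjusted p = 0.0122) with miR-29a and 0.58 (SE 0.23, adjusted p = 0.21) with miR-146a. Against scramble under LPS the log2 fold change of Mcm5 was 0.09 (SE 0.22, adjusted p = 0.877) for miR-7a, -0.30 (SE 0.21, adjusted p = 0.44) for miR-29a and -1.21 (SE 0.22, adjusted p = 0.0213) for miR-146a. Against scramble under vehicle it was 0.36 (SE 0.26, adjusted p = 0.586) for miR-7a, -0.50 (SE 0.25, adjusted p = 0.508) for miR-29a and -0.92 (SE 0.21, adjusted p = 0.0448) for miR-146a. The interaction of Mcm5 was -0.31 (SE 0.35, adjusted p = 0.957) for miR-7a, 0.23 (SE 0.35, adjusted p = 0.952) for miR-29a and -0.24 (SE 0.32, adjusted p = 0.798) for miR-146a.

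Cdc6, the ATPase that loads the helicase with CDT1 (ENSMUSG00000017499, chromosome 11, 98907801 to 98923940, plus strand), was measured at a lower level. Under vehicle Cdc6 stood at 11.5, 10.7, 9.40 and 11.1 CPM with scramble, at 18.1, 15.7, 18.9 and 6.42 with miR-7a, at 11.1, 12.7, 8.12 and 9.06 with miR-29a and at 3.09, 6.36, 6.79 and 7.63 with miR-146a. Under LPS the levels of Cdc6 were 14.9, 18.6, 13.5 and 18.9 CPM with scramble, 28.5, 17.97, 27.1 and 14.2 with miR-7a, 20.3, 27.1, 18.03 and 20.8 with miR-29a and 7.55, 10.5, 6.28 and 6.02 with miR-146a. Its LPS_miR-146a libraries were all below LPS_scramble, and its VEH_miR-146a libraries below VEH_scramble. LPS over vehicle gave Cdc6 a log2 fold change of 0.63 (SE 0.19, adjusted p = 0.0376) with scramble, 0.34 (SE 0.35, adjusted p = 0.645) with miR-7a, 1.11 (SE 0.21, adjusted p = 0.0025) with miR-29a and 0.22 (SE 0.29, adjusted p = 0.75) with miR-146a. Against scramble under LPS the log2 fold change of Cdc6 was 0.32 (SE 0.23, adjusted p = 0.514) for miR-7a, 0.35 (SE 0.17, adjusted p = 0.279) for miR-29a and -1.14 (SE 0.22, adjusted p = 0.0247) for miR-146a. Against scramble under vehicle it was 0.60 (SE 0.28, adjusted p = 0.393) for miR-7a, -0.13 (SE 0.21, adjusted p = 0.863) for miR-29a and -0.70 (SE 0.25, adjusted p = 0.113) for miR-146a. The interaction of Cdc6 was -0.26 (SE 0.40, adjusted p = 0.97) for miR-7a, 0.50 (SE 0.27, adjusted p = 0.797) for miR-29a and -0.41 (SE 0.32, adjusted p = 0.635) for miR-146a.

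Pcna encodes the clamp that tethers polymerases to DNA (ENSMUSG00000027342, chromosome 2, 132249162 to 132253314, minus strand). The pseudogene Pcna-ps2, with a median of 12.5 counts against 773 for Pcna, could share some of its reads. Without LPS Pcna was at 101, 141, 173 and 143 CPM with scramble, at 142, 165, 268 and 195 with miR-7a, at 96.6, 93.8, 120.3 and 137 with miR-29a and at 97.9, 102, 127 and 129.9 with miR-146a. With LPS Pcna was at 113, 109.97, 193 and 233 CPM with scramble, 209.9, 129.9, 250.3 and 203 with miR-7a, 121, 108 and 212 in replicates 1, 2 and 4 with miR-29a and 78.96, 68.8, 113 and 119 with miR-146a. The groups overlapped in every comparison, with much spread inside the LPS groups. Its log2 fold change for LPS over vehicle was 0.18 (SE 0.25, adjusted p = 0.651) with scramble, 0.03 (SE 0.24, adjusted p = 0.959) with miR-7a, and -0.35 (SE 0.19, adjusted p = 0.368) with miR-146a. The mimics under LPS, against scramble, gave Pcna 0.30 (SE 0.26, adjusted p = 0.606) for miR-7a, and -0.79 (SE 0.26, adjusted p = 0.153) for miR-146a. Under vehicle the mimics gave it 0.48 (SE 0.23, adjusted p = 0.41) for miR-7a, -0.30 (SE 0.19, adjusted p = 0.598) for miR-29a and -0.22 (SE 0.18, adjusted p = 0.479) for miR-146a. Tested as an interaction, Pcna was at -0.16 (SE 0.38, adjusted p = 0.983) for miR-7a, and -0.53 (SE 0.34, adjusted p = 0.565) for miR-146a.

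Rrm2 limits the supply of deoxynucleotides (ENSMUSG00000020649, chromosome 12, 24708241 to 24714146, plus strand). Without LPS Rrm2 was at 26.2, 13.9, 19.6 and 20.3 CPM with scramble, at 41.3, 42.1, 31.1 and 28.3 with miR-7a, at 26.99, 24.1, 19.6 and 15.5 with miR-29a and at 14.8, 17.1, 11.2 and 13.3 with miR-146a. With LPS Rrm2 was at 25.2, 54.6, 29.5 and 37.9 CPM with scramble, 82.3, 58.4, 57.3 and 37.8 with miR-7a, 52.7, 76.8, 52.7 and 47.8 with miR-29a and 14.8, 20.2, 12.2 and 20.5 with miR-146a. LPS_scramble replicate 1 lay within the vehicle range, while every LPS_miR-146a library was below every LPS_scramble library. Its log2 fold change for LPS over vehicle was 0.88 (SE 0.26, adjusted p = 0.0359) with scramble, 0.57 (SE 0.26, adjusted p = 0.247) with miR-7a, 1.47 (SE 0.21, adjusted p = 0.000475) with miR-29a and 0.23 (SE 0.23, adjusted p = 0.666) with miR-146a. The mimics under LPS, against scramble, gave Rrm2 0.60 (SE 0.25, adjusted p = 0.246) for miR-7a, 0.61 (SE 0.22, adjusted p = 0.132) for miR-29a and -1.23 (SE 0.25, adjusted p = 0.0319) for miR-146a. Under vehicle the mimics gave it 0.90 (SE 0.24, adjusted p = 0.185) for miR-7a, 0.04 (SE 0.24, adjusted p = 0.969) for miR-29a and -0.52 (SE 0.24, adjusted p = 0.193) for miR-146a. Tested as an interaction, Rrm2 was at -0.30 (SE 0.39, adjusted p = 0.963) for miR-7a, 0.61 (SE 0.35, adjusted p = 0.813) for miR-29a and -0.66 (SE 0.37, adjusted p = 0.504) for miR-146a.

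Tyms makes thymidylate for DNA synthesis (ENSMUSG00000025747, chromosome 5, 30058202 to 30073617, minus strand). Under vehicle Tyms stood at 20.04, 17.5, 14.99 and 14.9 CPM with scramble, at 35.2, 39.7, 29.2 and 23.1 with miR-7a, at 16.7, 21.5, 19.8 and 15.6 with miR-29a and at 17.3, 11.8, 9.23 and 11.6 with miR-146a. Under LPS the levels of Tyms were 21.6, 24.9, 21.3 and 23.6 CPM with scramble, 58.7, 40.8, 46.5 and 26.7 with miR-7a, 31.3, 33.6, 38.4 and 27.3 with miR-29a and 16.6, 14.3, 12.3 and 8.21 with miR-146a. The miR-7a libraries were above the scramble libraries in both conditions, and the LPS_miR-146a libraries below. LPS over vehicle gave Tyms a log2 fold change of 0.47 (SE 0.16, adjusted p = 0.0649) with scramble, 0.29 (SE 0.28, adjusted p = 0.622) with miR-7a, 0.85 (SE 0.18, adjusted p = 0.00429) with miR-29a and 0.25 (SE 0.24, adjusted p = 0.644) with miR-146a. Against scramble under LPS the log2 fold change of Tyms was 0.83 (SE 0.21, adjusted p = 0.0626) for miR-7a, 0.50 (SE 0.14, adjusted p = 0.0619) for miR-29a and -0.80 (SE 0.18, adjusted p = 0.0432) for miR-146a. Against scramble under vehicle it was 0.99 (SE 0.22, adjusted p = 0.113) for miR-7a, 0.11 (SE 0.20, adjusted p = 0.877) for miR-29a and -0.53 (SE 0.22, adjusted p = 0.165) for miR-146a. The interaction of Tyms was -0.17 (SE 0.33, adjusted p = 0.977) for miR-7a, 0.40 (SE 0.22, adjusted p = 0.805) for miR-29a and -0.24 (SE 0.28, adjusted p = 0.753) for miR-146a.

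Slbp, the protein that binds the stem-loop at the end of histone mRNA (ENSMUSG00000004642, chromosome 5, 33634952 to 33652574, minus strand), was called in 1 comparison only. Without LPS Slbp was at 29.6, 20.1, 29.97 and 23.5 CPM with scramble, at 33.6, 41.3, 23.8 and 24.4 with miR-7a, at 28.8, 17.6, 17.8 and 20.6 with miR-29a and at 25.9, 45.1, 20.4 and 14.3 with miR-146a. With LPS Slbp was at 35.1, 32.4, 24.7 and 27.3 CPM with scramble, 66.4, 36.7, 41.2 and 30.9 with miR-7a, 43.1, 40.8, 42.97 and 34.9 with miR-29a and 25.2, 24.3, 18.9 and 21.9 with miR-146a. All LPS_miR-29a libraries were above the VEH_miR-29a libraries, and VEH_miR-146a replicate 2 was the highest of its group by far. Its log2 fold change for LPS over vehicle was 0.19 (SE 0.18, adjusted p = 0.488) with scramble, 0.38 (SE 0.28, adjusted p = 0.499) with miR-7a, 0.94 (SE 0.17, adjusted p = 0.00214) with miR-29a and -0.06 (SE 0.29, adjusted p = 0.94) with miR-146a. The mimics under LPS, against scramble, gave Slbp 0.51 (SE 0.21, adjusted p = 0.242) for miR-7a, 0.48 (SE 0.14, adjusted p = 0.0687) for miR-29a and -0.35 (SE 0.16, adjusted p = 0.268) for miR-146a. Under vehicle the mimics gave it 0.30 (SE 0.23, adjusted p = 0.62) for miR-7a, -0.30 (SE 0.21, adjusted p = 0.636) for miR-29a and -0.08 (SE 0.32, adjusted p = 0.894) for miR-146a. Tested as an interaction, Slbp was at 0.21 (SE 0.34, adjusted p = 0.972) for miR-7a, 0.78 (SE 0.24, adjusted p = 0.568) for miR-29a and -0.25 (SE 0.36, adjusted p = 0.815) for miR-146a.

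E2f1, an activating E2F factor (ENSMUSG00000027490, chromosome 2, 154559407 to 154569892, minus strand), was not called in any comparison. Under vehicle E2f1 stood at 25.05, 52.1, 22.4 and 34.5 CPM with scramble, at 29.9, 33.1, 31.1 and 43.7 with miR-7a, at 27.5, 41.7, 31.5 and 36.3 with miR-29a and at 21.6, 21.6, 21.4 and 28.6 with miR-146a. Under LPS the levels of E2f1 were 28.4, 40.1, 31.6 and 43.3 CPM with scramble, 29.5, 46.3, 53.5 and 36.9 with miR-7a, 24.5, 48.4, 23.9 and 36.9 with miR-29a and 21.9, 36.8, 28.2 and 32.02 with miR-146a. Replicate 2 of VEH_scramble was the highest vehicle library, and the groups overlapped in every comparison. LPS over vehicle gave E2f1 a log2 fold change of 0.22 (SE 0.24, adjusted p = 0.549) with scramble, 0.31 (SE 0.24, adjusted p = 0.52) with miR-7a, -0.09 (SE 0.24, adjusted p = 0.811) with miR-29a and 0.30 (SE 0.20, adjusted p = 0.476) with miR-146a. Against scramble under LPS the log2 fold change of E2f1 was 0.16 (SE 0.19, adjusted p = 0.733) for miR-7a, -0.19 (SE 0.23, adjusted p = 0.679) for miR-29a and -0.36 (SE 0.18, adjusted p = 0.352) for miR-146a. Against scramble under vehicle it was 0.08 (SE 0.28, adjusted p = 0.927) for miR-7a, 0.11 (SE 0.25, adjusted p = 0.904) for miR-29a and -0.38 (SE 0.25, adjusted p = 0.354) for miR-146a. The interaction of E2f1 was 0.08 (SE 0.35, adjusted p = 0.99) for miR-7a, -0.29 (SE 0.36, adjusted p = 0.936) for miR-29a and 0.07 (SE 0.32, adjusted p = 0.954) for miR-146a.

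Ccne2, a cyclin that activates CDK2 at the start of S phase (ENSMUSG00000028212, chromosome 4, 11191351 to 11204779, plus strand), had the lowest counts of these genes. Without LPS Ccne2 was at 7.60, 2.07, 2.54 and 7.73 CPM with scramble, at 11.8, 24.8, 13.4 and 1.28 with miR-7a, at 9.51, 9.13, 3.89 and 3.87 with miR-29a and at 9.26, 14.4, 3.18 and 3.39 with miR-146a. With LPS Ccne2 was at 7.80, 12.1, 7.83 and 10.2 CPM with scramble, 39.9, 19.9, 14.04 and 7.35 with miR-7a, 18.2, 17.9, 14.4 and 12.3 with miR-29a and 5.00, 6.86, 2.55 and 8.48 with miR-146a. It varied widely within groups, from 1.28 to 24.8 CPM in VEH_miR-7a. Its log2 fold change for LPS over vehicle was 0.99 (SE 0.37, adjusted p = 0.0859) with scramble, 0.50 (SE 0.67, adjusted p = 0.743) with miR-7a, 1.497 (SE 0.30, adjusted p = 0.00346) with miR-29a and -0.17 (SE 0.51, adjusted p = 0.904) with miR-146a. The mimics under LPS, against scramble, gave Ccne2 0.73 (SE 0.41, adjusted p = 0.394) for miR-7a, 0.67 (SE 0.19, adjusted p = 0.0668) for miR-29a and -1.02 (SE 0.32, adjusted p = 0.121) for miR-146a. Under vehicle the mimics gave it 1.15 (SE 0.57, adjusted p = 0.428) for miR-7a, 0.16 (SE 0.47, adjusted p = 0.927) for miR-29a and 0.15 (SE 0.58, adjusted p = 0.891) for miR-146a. Tested as an interaction, Ccne2 was at -0.44 (SE 0.85, adjusted p = 0.977) for miR-7a, 0.56 (SE 0.50, adjusted p = 0.905) for miR-29a and -1.12 (SE 0.68, adjusted p = 0.547) for miR-146a.

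Other genes of the pathway are given beside the members with no test of the difference. Their list of 49 was set by function, with earlier results of these data known. Over all genes, the shares that rose with LPS were 9.37% in scramble cells, 12.8% in miR-29a cells, 2.76% in miR-7a cells and 2.86% in miR-146a cells, and 2.07% rose for miR-29a under LPS. The shares that fell with LPS were 8.21% in scramble cells, 13.8% in miR-29a cells and 3.89% in miR-7a cells. For the mimics, 2.77% fell with miR-29a under LPS, and 1.61% and 1.13% with miR-146a under LPS and vehicle. Of the 48 tested, 25 rose with LPS and scramble (median log2 fold change 0.68), and 33 rose and 1 fell with LPS and miR-29a (0.92). With LPS, 2 rose with miR-7a (0.40) and 4 with miR-146a (0.29). The miR-146a mimic lowered 14 under LPS (-0.65) and 1 under vehicle (-0.15), and miR-29a raised 3 under LPS (0.12). The list of brakes on the cycle, such as the CDK inhibitors and the retinoblastoma family, had 12 of 13 tested, of which 4 rose with LPS and scramble and 1 fell with miR-146a under LPS. With LPS, 3 brakes rose and 1 fell with miR-29a, and 1 fell with miR-7a.

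Mitosis genes and histone genes, the lists nearest in the cell cycle, are set beside the members for contrast. All 27 mitosis genes rose with LPS and scramble (median 1.39, against 0.64 over the members), 26 with miR-29a, 6 with miR-7a and 22 with miR-146a. The miR-146a mimic lowered 13 of them under LPS (-0.69) and 5 under vehicle (-0.33). The replication-dependent histone genes, whose mRNAs are made in S phase, had other counts with LPS than the members: 0 of 56 tested rose with LPS and scramble, 2 fell, and their median was -0.20, a difference that was not tested. With miR-146a 38 of 59 histone genes fell under LPS (-1.10) and 42 of 54 under vehicle (-1.59). With miR-29a 10 of 60 fell under LPS (-0.52) and 0 of 51 under vehicle, where the median was -0.80. LPS with miR-7a lowered 20 of 47 (-0.81), LPS with miR-29a raised 3 of 53, and LPS with miR-146a raised 5 of 54. The histone genes are near-identical copies that share reads, so single values of theirs are uncertain.

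Members with E2F letters in their promoter windows can be set beside the rest. In LPS_scramble over VEH_scramble 9 of the 14 with the letters rose (median 0.76), and 11 of the 24 whose windows lacked them (0.55). In LPS_miR-146a over LPS_scramble 7 of 14 fell (median -1.03), and 12 of 24 (-0.78). In LPS_miR-29a over VEH_miR-29a 11 of 14 rose (0.95), and 20 of 23 (0.78). These are descriptions with no test, and 8 members had no window. The miR-7a letters were found in 9 members, whose median under LPS was 0.21 against 0.27 for the 37 without them.

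Several members overlap a gene on the opposite strand within annotated exons, and the strand setting of the counting is not given in the sources used here, so reads could have been split between the partners. The largest partners were Vps35 for Orc6 (median 3560 counts against 155.5), Eif4a2 for Rfc4 (2304 against 117), Lat2 for Rfc2 (1487 against 724.5), Wsb2 for Rfc5 (1265 against 333) and Gse1 for Gins2 (1087 against 131). Mcm7 overlaps Ap4m1 and Cops6, with medians of 302 and 321.5 counts against 707.5.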

How the data were processed

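The authors extracted total RNA from BV-2 cells, removed ribosomal RNA, sequenced single-end reads and, according to their methods, ran the nf-core rnaseq workflow against GRCm38 to quantify genes. The submitters' processing notes name edgeR and limma. The values deposited by the authors are estimated counts per gene, but the table lost its decimal marks, so that a value with 3 decimals stands far too high. The lost marks were restored by a posterior weighing of 0, 1, 2 or 3 decimals, and a value under a posterior of 0.9 was treated as uncertain (1.17% of values above 0). A gene with an uncertain value was left out of the comparison concerned. No column of values was left unmatched to a sample (0).

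For each comparison of 4 against 4 libraries, genes were filtered with filterByExpr, scaled by TMM and tested with limma-voom (limma 3.58.1, edgeR 4.0.16, R 4.3.3), with Benjamini-Hochberg adjustment over all genes tested and a threshold of 0.05. There were 10 pairwise comparisons and 3 interactions. DESeq2 1.42.0, edgeR's quasi-likelihood test, no filter, a minimum posterior of 0.99, the values as deposited, removal of GC content and gene length trends, a replicate block and omission of each library were alternatives, and a limma-trend fit without correction was added after seeing the data. The restoration, limma-voom with and without the block, edgeR, DESeq2 and the trend removal were tested on data simulated for a single pairwise comparison. These data held no replicate effect, and their decimals were drawn with the shares that the restoration assumes. The interactions, the pairing check, the search for outlying libraries and the sequence searches were not simulated. Intervals are 95% and cover the spread between these libraries only, given by the study's methods as 4 independent experiments.

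Same-numbered libraries deviated together, with every correlation over 0.1 (0.163 to 0.454), in LPS over vehicle with scramble and with miR-29a, in miR-7a and miR-29a over scramble under LPS and in miR-29a over scramble under vehicle. In these the replicate numbers were taken to pair the libraries, a hint from the data, since the labels give numbers only. The study's methods call the replicates independent experiments, so the block may belong in every comparison, which the correlations cannot decide.

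The members and lists were chosen with earlier results of these data known. All 46 members are named with their range, and full values are given for the called members with the smallest adjusted p, at most 8 per comparison, for the 3 smallest where fewer than 3 were called, and for Mcm5, Cdc6, E2f1, Ccne2, Pcna, Rrm2, Tyms and Slbp. Seed letters were searched in GENCODE vM21 transcripts (GRCm38), and promoter windows and microRNAs are RefSeq, GRCm38.p6.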

Additional observations from a re-analysis of the deposited data

Results flagged for a closer look

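Single libraries far from the other 3 of their group were looked for in 375 groups of 4 values, those of the 46 genes and their sum in each group other than Pcna in LPS_miR-29a, and 22 stood apart by Dixon's criterion (5.87%), where chance gives about 5%. Of the 22, 5 were in replicate 2 of VEH_miR-29a: Mcm5 at 122 CPM against 49.4 to 61.4 in the others, Pold2 at 143 against 66.1 to 73.4, Pola2 at 41.1 against 24.7 to 26.6, Lig1 at 28.7 against 23.6 to 24.1, and Prim1 at 6.20 against 10.3 to 10.5. Replicate 2 of LPS_miR-29a held 4 more, Mcm7 at 194 CPM against 122 to 126, Mcm3 at 194.4 against 117 to 129, Mcm10 at 92.6 against 49.4 to 52.96, and Rrm2 at 76.8 against 47.8 to 52.7. Prim1 was also high in LPS_miR-29a replicate 3, at 35.8 CPM against 23.2 to 24.9. In VEH_miR-7a replicate 4, the shallowest library, Cdc45 was at 12.8 CPM against 18.9 to 19.9 and Gins2 at 16.7 against 28.9 to 29.9. In LPS_miR-7a replicate 1 Gins4 was at 36.4 CPM against 26.2 to 27.9 and Rfc4 at 43.5 against 22.1 to 23.8. With miR-146a, Mcm3 was at 91.2 CPM in LPS replicate 2 against 50.3 to 56.04 and Gins3 at 10.6 against 5.20 to 6.02. Under vehicle, Mcm3 was at 80.2 CPM in VEH_miR-146a replicate 1 against 44.6 to 48.6, Rpa2 in the same library at 20.99 against 11.7 to 12.5, and E2f1 in replicate 4 at 28.6 against 21.4 to 21.6. The other 3 were Cdt1 in VEH_scramble replicate 2, at 130.2 CPM against 24.4 to 40.2, Gins1 in LPS_scramble replicate 1, at 12.1 against 16.4 to 17.1, and Chaf1b in LPS_scramble replicate 2, at 56.9 against 39.2 to 41.6.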

How the results depend on the processing

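Of the counts of called members, 169 alternative values lay within 1.5 times the reported one and 61 did not. The values as deposited, without their decimal marks, left 1 member called for LPS with scramble and 0 for LPS with miR-29a, LPS with miR-146a, miR-29a under LPS, and miR-146a under LPS and under vehicle. They also turned the sign of Mcm7 with scramble (-1.83) and of Pole (-1.15), Mcm10 (-0.65) and Tyms (-2.10) for LPS with miR-29a. For LPS with miR-7a, reported as 0, edgeR's quasi-likelihood test called 4, DESeq2 9, the unfiltered fit 7, the posterior of 0.99 1, the removal of GC and length trends 1 and limma-trend 2. DESeq2 gave 3 for LPS with miR-146a, 3 for miR-7a and 3 for miR-29a under LPS, and 1 for miR-7a and 12 for miR-146a under vehicle, while edgeR gave 2 for miR-7a under LPS. Without GC and length trends 2 were called for miR-7a and 2 for miR-29a under LPS and 1 for miR-146a under vehicle. There the posterior of 0.99 gave 5, and limma-trend gave 0 for LPS with miR-146a.

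With the replicate block 21 members were called for LPS with miR-7a, 4 for LPS with miR-146a, 2 for miR-7a and 3 for miR-29a under LPS, and 2 for miR-7a and 6 for miR-146a under vehicle. Over all genes the block called 14.8%, 6.88%, 8.99%, 9.85%, 3.08% and 8.21% in the same order. Rfc2 was called lower for LPS with miR-29a under the block (1, against 0 reported), and no other total of calls moved by over 1.5 times. The block with GC and length trends removed gave 14, 4, 8 (6 higher and 2 lower) and 15 for the first 4 of these, 6 for miR-146a under vehicle and 1 for miR-29a under vehicle. For LPS with miR-7a or miR-146a, miR-146a under both conditions and miR-7a under vehicle, the pairing check was not passed by every pair. The check is a cut on correlations and cannot show that these libraries were unpaired, so whether the block belongs in those fits was not settled. Of the 8 libraries of each comparison, 4 correlated best with their own number for LPS with miR-7a, 6 for miR-7a under vehicle and 7 for each of the others, a hint from the data and not the design. The cause of these changes was not tested.

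Leaving out 1 library at a time gave 13 to 26 for LPS with scramble, 0 to 3 with miR-7a, 29 to 39 with miR-29a and 0 to 1 with miR-146a. Against scramble under LPS it gave 0 to 3 for miR-7a, 0 to 2 for miR-29a and 1 to 25 for miR-146a, and under vehicle 0, 0 and 0 to 7 in the same order, and 0 in the 3 interactions. Of the values of single genes, 2324 kept direction and side of the threshold, 63 passed it, 128 no longer did, 67 moved and 4 reversed. Depth limits the low genes most: in the shallowest library 3 counts are 2.67 per 1e6 counts before TMM scaling. The TMM factor of that library, 0.694, makes them more on the scale of CPM used here.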
